A study of Mus musculus with 12 samples.

Results

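The genes described here are 6 abundant nuclear and structural non-coding RNAs, Rpph1, Rn7sk, Rmrp, Terc, Malat1 and Neat1, followed in mouse ESCs (embryonic stem cells) and in the EpiLCs (epiblast-like cells) derived from them. They were chosen by name, by mapping the gene identifiers of the counts to symbols with the GENCODE mouse annotation, and they are 6 of the 51467 genes counted. All 6 passed the filter on low counts that left 14731 genes for testing. Each was measured in 2 ways in each cell type. Newly made RNA was labelled with 4-thiouridine (4sU), a uridine analog that growing transcripts take up, then biotinylated and captured on streptavidin. Total RNA was depleted of ribosomal RNA and sequenced without capture.

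There were 4 groups of 3 libraries, namely ESC 4sU, ESC total, EpiLC 4sU and EpiLC total. ESCs were grown in serum with LIF and the 2i inhibitors PD0325901 and CHIR99021, which hold cells in the naive state. EpiLCs were collected about 56 hours after LIF and 2i were taken away and resemble the formative epiblast. Cells of every group, total RNA included, received the same pulse of 500 µM 4sU for 30 minutes. The study calls its replicates biological, and neither it nor the labels say whether each was a culture of its own, so p-values measure the spread between these samples. The libraries were made with KAPA stranded kits of 2 kinds, and which library was made with which kit was not given in the sources used here.

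Rpph1, Rmrp and Rn7sk are short RNAs made by RNA polymerase III. Rpph1 is the catalytic RNA of RNase P, which trims the leader from transfer RNA precursors. Rmrp is the related RNA of RNase MRP, which cuts ribosomal RNA precursors. Rn7sk is the 7SK RNA, which together with Hexim proteins holds the elongation kinase P-TEFb inactive. Terc is the RNA of telomerase and carries the template for telomere repeats. Malat1 and Neat1 are long RNAs made by RNA polymerase II that stay in the nucleus. Malat1 gathers in nuclear speckles, and Neat1 is the scaffold around which paraspeckles form. In 4sU data such RNAs are of interest because a long-lived RNA is a large part of total RNA while only its newly made copies can be captured, and because capture needs uridines.

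The letters that can carry the label are shown here for the 4 short RNAs and Neat1, with uridines in capitals and all other bases in lower case, read 5′ to 3′ from the GENCODE M21 transcripts on GRCm38 (mm10), minus strand in every case. For the 4 short RNAs the stretch starts at the first base. It covers 300 bases of Rpph1 (chr14:50807468-50807767), 300 of Rn7sk (chr9:78175334-78175633), all 271 of Rmrp (chr4:43492788-43493058) and 300 of Terc (chr3:96414560-96414859).
Rpph1: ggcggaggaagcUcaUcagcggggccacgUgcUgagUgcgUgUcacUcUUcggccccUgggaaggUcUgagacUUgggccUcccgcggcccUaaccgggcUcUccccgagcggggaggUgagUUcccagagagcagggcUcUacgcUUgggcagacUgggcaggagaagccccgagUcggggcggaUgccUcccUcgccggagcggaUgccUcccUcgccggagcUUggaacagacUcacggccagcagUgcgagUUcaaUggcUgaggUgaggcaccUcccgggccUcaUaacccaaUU
Rn7sk: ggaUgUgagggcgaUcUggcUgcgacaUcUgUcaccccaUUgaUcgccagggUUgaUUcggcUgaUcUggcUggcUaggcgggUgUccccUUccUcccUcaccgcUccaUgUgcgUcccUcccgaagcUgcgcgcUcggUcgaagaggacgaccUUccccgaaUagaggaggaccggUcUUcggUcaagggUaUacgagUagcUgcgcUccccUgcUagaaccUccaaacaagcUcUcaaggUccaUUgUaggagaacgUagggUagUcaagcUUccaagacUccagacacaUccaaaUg
Rmrp: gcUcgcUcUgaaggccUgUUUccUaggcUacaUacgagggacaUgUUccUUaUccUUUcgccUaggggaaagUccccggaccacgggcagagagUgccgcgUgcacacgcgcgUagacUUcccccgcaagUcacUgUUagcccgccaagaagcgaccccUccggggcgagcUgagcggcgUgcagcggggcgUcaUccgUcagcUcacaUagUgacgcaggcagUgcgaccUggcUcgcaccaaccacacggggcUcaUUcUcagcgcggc
Terc: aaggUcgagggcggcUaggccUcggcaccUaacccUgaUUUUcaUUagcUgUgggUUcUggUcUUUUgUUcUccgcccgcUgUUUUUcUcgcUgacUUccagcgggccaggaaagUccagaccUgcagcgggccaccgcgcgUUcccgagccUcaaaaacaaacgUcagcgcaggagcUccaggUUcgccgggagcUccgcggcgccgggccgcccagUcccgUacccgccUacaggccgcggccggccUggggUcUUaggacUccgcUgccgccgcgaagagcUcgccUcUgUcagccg

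For Neat1 the last 200 annotated bases (chr19:5824708-5824907) are shown.
Neat1: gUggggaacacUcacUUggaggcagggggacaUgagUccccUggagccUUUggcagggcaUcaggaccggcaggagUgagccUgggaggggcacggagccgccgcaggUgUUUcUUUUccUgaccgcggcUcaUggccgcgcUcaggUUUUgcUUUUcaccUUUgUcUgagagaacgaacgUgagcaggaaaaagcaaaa
The Neat1 stretch held 39 uridines, closing with runs of uridines and a stretch rich in adenines. The 300-base stretches of Rpph1, Rn7sk and Terc held 48, 63 and 57.

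Over the whole annotated RNA, Rpph1 had 51 uridines in 319 bases (15.99%), Rmrp 46 in 271 (16.97%), Terc 76 in 423 (17.97%) and Rn7sk 74 in 331 (22.4%). Malat1 had 2017 uridines in 6983 bases (28.9%) and Neat1 6240 in 20771 (30.0%). The median tested gene had 802 uridines and 25.2% uridine in its longest transcript. Rpph1, Rmrp and Terc were thus at the 0.632, 1.26 and 2.47 percentiles of uridine content, Rn7sk at the 24.0 percentile, and Malat1 and Neat1 at the 80.4 and 87.0 percentiles. Each gene lay in the deposited annotation as follows. Rpph1 was at chr14:50807449-50807767, Rn7sk at chr9:78175303-78175633, Rmrp at chr4:43492788-43493058, Terc at chr3:96414437-96414859, Malat1 at chr19:5795690-5802672 and Neat1 at chr19:5824708-5845478. The counts cover exons only, and the 4 short RNAs are each 1 exon.

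The 4sU libraries held 3097693 to 5385644 reads on genes and the total RNA libraries 9300845 to 21975684, and no library had a read on the spike-in sequences, so every value here is a share of a library and not an amount per cell. Fewer copies per cell and a larger rest of the library cannot be told apart. Mitochondrial genes took 5.48 to 8.95% of 4sU reads and 0.392 to 0.525% of total reads. Naive markers such as Zfp42 and Esrrb were called lower in EpiLC total RNA (6 of 6) and formative markers such as Fgf5 and Otx2 higher (4 of 4). Of 6 fibroblast markers, 2 passed the filter (Col1a2 and Dcn), both called higher in EpiLCs. The list summed to 0.570 to 1.09 CPM (reads scaled to the library total) in ESC total and 10.1 to 12.4 in EpiLC total, Postn and Dcn were at 0 in every ESC library, and the part of these cells in the results was not tested. Of 4 primitive endoderm markers, 2 passed, and the list summed to 2.90 to 7.35 CPM in ESC total and 5.52 to 6.23 in EpiLC total.

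The third ESC replicate stood apart from the other two in both fractions. Genes under 200 bases took 1.15% of its total reads against 0.601 and 0.510% in ESC total replicates 1 and 2. They took 3.35% of its 4sU reads against 2.41 and 2.51%. The Y RNAs Rny1 and Rny3, small cytoplasmic RNAs bound by Ro60, were at 587 and 693 CPM in ESC total replicate 3, while the other 2 ESC total libraries were at 139 and 116 CPM for Rny1 and 108 and 95.5 CPM for Rny3. EpiLC total replicates 1 to 3 also spread on these measures, with 1.21, 0.960 and 0.650% of reads on genes under 200 bases. Rny1 was at 521, 408 and 232 CPM there and Rny3 at 593, 448 and 200 CPM. Where leaving ESC replicate 3 out changed a call, or a sign among the 6 RNAs, values are given both ways. What sets that replicate apart was not tested.

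The polymerase III RNAs were at the top of the counted reads in total RNA. By mean share of these reads, Rpph1, Rmrp and Rn7sk ranked 1, 2 and 3 of all counted genes in ESC total. They ranked 3, 2 and 1 in EpiLC total, with Malat1 ranked 4 in both. The ranks cover only reads with a unique place, and ribosomal RNA was left out. RNAs with several copies in the genome can therefore be missing from the top, and the ranks are not an order of abundance in the cell. Together the 6 RNAs took 4.89 ± 0.843% (SD, n = 3) of the reads in ESC total and 3.71 ± 0.0465% in EpiLC total. In the 4sU fraction they took 1.16 ± 0.0212% in ESCs and 0.882 ± 0.0396% in EpiLCs, so the summed share was 4.22 times larger in total than in 4sU RNA in ESCs and 4.21 times in EpiLCs.

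**Figure D1:**
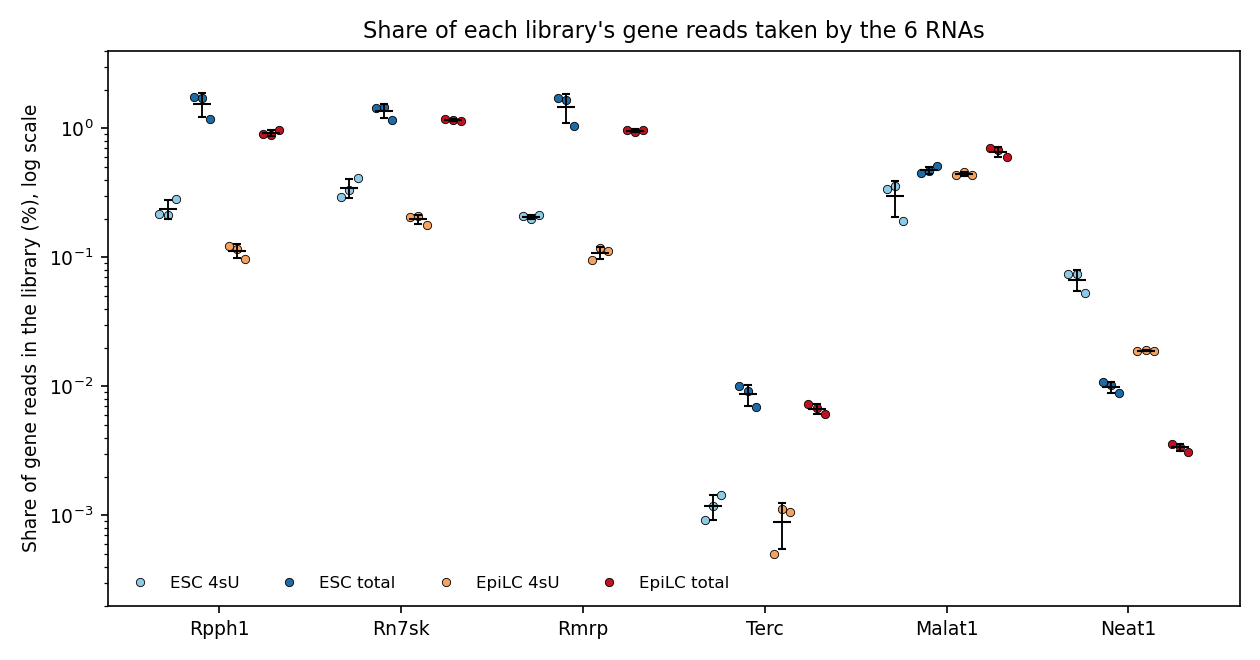
Share of each library's gene reads (percent, log scale) taken by each RNA in ESC 4sU, ESC total, EpiLC 4sU and EpiLC total, with 1 point per library and bars for the mean ± SD of 3. The 4 short RNAs and Malat1 lie higher in total than in 4sU RNA, and Neat1 lies lower.

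Rpph1 took 0.219, 0.213 and 0.286% of the reads in ESC 4sU replicates 1 to 3 and 1.77, 1.72 and 1.18% in ESC total. In EpiLCs it took 0.124, 0.117 and 0.0980% of 4sU reads and 0.899, 0.895 and 0.972% of total reads. Total libraries lay above all 4sU libraries of the same cell type, and ESC total replicate 3 was the lowest of its group. Rmrp, the sister RNA, took 0.211, 0.199 and 0.212% of ESC 4sU reads and 1.71, 1.67 and 1.04% of ESC total reads. In EpiLCs Rmrp took 0.0952, 0.118 and 0.113% of 4sU reads and 0.967, 0.939 and 0.978% of total reads. The ratio of Rpph1 to Rmrp reads stayed close to 1 in every group. It was 1.06 ± 0.0574 in ESC total and 0.959 ± 0.0322 in EpiLC total (SD, n = 3), and 1.15 ± 0.172 and 1.05 ± 0.221 in the 4sU groups.

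Rn7sk took 0.295, 0.332 and 0.410% of ESC 4sU reads and 1.45, 1.47 and 1.17% of ESC total reads. In EpiLCs the shares were 0.205, 0.209 and 0.178% of 4sU reads and 1.189, 1.153 and 1.139% of total reads. The groups did not overlap between fractions, whereas EpiLC and ESC total overlapped. The level of Rn7sk has a limit that counting error does not cover. Of its 282 windows of 50 bases, the read length, 192 (68.1%) are identical to a stretch of at least 1 of 7 annotated copies elsewhere in the genome. Copies outside the annotation were not searched, and only reads with a unique place were counted. The copies themselves drew few reads, at most 1073 over all 12 libraries (Gm24146), and how many Rn7sk reads were left out was not tested.

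Terc was far less abundant, with 42, 64 and 50 reads in ESC 4sU and 1933, 2029 and 758 in ESC total. In EpiLCs it had 20, 49 and 33 reads in 4sU and 685, 739 and 641 in total. In the lowest library the 20 reads were 0.000501% of the library with an exact (Clopper-Pearson) 95% interval of 0.000306 to 0.000773%, which covers counting error only, since the reads carried no molecular identifiers. For the other 5 RNAs the upper bound of that interval was at most 11.4% above the share, in EpiLC total replicate 3 for Neat1. The 4sU values of Terc therefore limit what can be said of its change between cell types, while its total and 4sU shares did not overlap in either.

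Malat1 took 0.338, 0.361 and 0.192% of ESC 4sU reads and 0.450, 0.469 and 0.509% of ESC total reads. In EpiLCs it took 0.436, 0.459 and 0.435% of 4sU reads and 0.701, 0.681 and 0.599% of total reads. ESC 4sU replicate 3 was low by the measure of the other 2. Neat1 took 0.0742, 0.0744 and 0.0526% of ESC 4sU reads but 0.0108, 0.0102 and 0.00885% of ESC total reads. In EpiLCs it took 0.0188, 0.0190 and 0.0190% of 4sU reads and 0.00358, 0.00341 and 0.00313% of total reads. Neat1 was the only member with a smaller share in total than in 4sU RNA, in both cell types and without overlap.

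Per kilobase of annotated exon, the 3 polymerase III RNAs led and Neat1 trailed in total RNA. The order is of these values only. That of Rn7sk counts only reads with a unique place, though 68.1% of its windows are shared with copies. That of Neat1 is spread over all 20771 annotated bases. In ESC total the levels were 54400 ± 13810 CPM per kb for Rmrp, 48760 ± 10240 for Rpph1 and 41220 ± 5113 for Rn7sk (SD, n = 3), and the libraries of these 3 overlapped. Malat1 was at 682 ± 43.2, Terc at 206 ± 38.6 and Neat1 at 4.78 ± 0.470, each clear of its neighbours. In EpiLC total Rmrp (35480 ± 757) and Rn7sk (35060 ± 776) overlapped and Rpph1 (28900 ± 1351) was below both. In the 4sU fraction the order differed. Rn7sk came first in ESCs at 10450 ± 1766 CPM per kb and overlapped with Rpph1 at 7499 ± 1278, though not with Rmrp at 7661 ± 269. Neat1 (32.3 ± 6.02) and Terc (28.1 ± 6.15) overlapped there. In EpiLC 4sU Rn7sk stood at 5962 ± 519, Rmrp at 4003 ± 434, Rpph1 at 3539 ± 417, Malat1 at 635 ± 19.2, Terc at 21.2 ± 8.17 and Neat1 at 9.12 ± 0.0525, with overlap between Rmrp and Rpph1.

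The first comparison was total against 4sU RNA within a cell type, the relative stability of the study, where a higher log2 ratio means a larger share in total than in newly made RNA. A gene was called at a Benjamini-Hochberg adjusted p under 0.05 in limma-voom and an absolute log2 change over 1. In ESCs 5 of the 6 RNAs were called, 4 higher in total RNA (Rpph1, Rn7sk, Rmrp and Terc) and 1 lower (Neat1). Of all 14731 genes, 23.7% were called higher and 26.8% lower in that comparison. The same 5 were called in EpiLCs, in the same directions, where 24.2% of all genes were called higher and 23.3% lower.

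In ESCs the log2 ratio of total over 4sU was 3.13 ± 0.258 (SE) for Terc (adjusted p = 3.79e-08), 3.02 ± 0.151 for Rmrp (1.93e-10), 2.92 ± 0.151 for Rpph1 (2.58e-10) and 2.22 ± 0.117 for Rn7sk (3.31e-10). These were 8.72-, 8.12-, 7.58- and 4.65-fold ratios, at the 99.6, 99.5, 99.4 and 96.3 percentiles of all tested genes, whose median was 0.03. In EpiLCs the log2 ratios were 3.32 ± 0.155 for Rmrp (adjusted p = 1.98e-10), 3.20 ± 0.155 for Rpph1 (2.75e-10), 3.14 ± 0.311 for Terc (3.79e-07) and 2.72 ± 0.120 for Rn7sk (1.12e-10). Each was at or above the 99.1 percentile there, with a median of 0.15 over all genes. Among the 573 other tested genes under 500 bases, 17 lay above Terc in ESCs and 43 above Rn7sk, the member lowest of the 4.

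Neat1 lay at the other end, with a log2 ratio of -2.51 ± 0.122 in ESCs (adjusted p = 1.4e-10) and -2.33 ± 0.145 in EpiLCs (2.97e-09), that is 5.71- and 5.02-fold more in the 4sU fraction, at the 13.3 and 11.3 percentiles. Malat1, its neighbour on chromosome 19 and also nuclear, was on the positive side at 0.95 ± 0.165 in ESCs (adjusted p = 8.6e-05) and 0.74 ± 0.163 in EpiLCs (0.000856), within the fold limit in both. The ratio of Malat1 to Neat1 reads, which needs no scaling between libraries, was 4.36 ± 0.623 in ESC 4sU and 48.4 ± 8.11 in ESC total (SD, n = 3), and 23.4 ± 0.604 and 196 ± 4.33 in the EpiLC groups. Malat1 in ESCs rested on replicate 3 of ESC 4sU, since its log2 ratio was 0.62 without that library and 1.02 and 1.07 without ESC 4sU replicates 1 and 2, where it passed the fold limit.

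**Figure D2:**
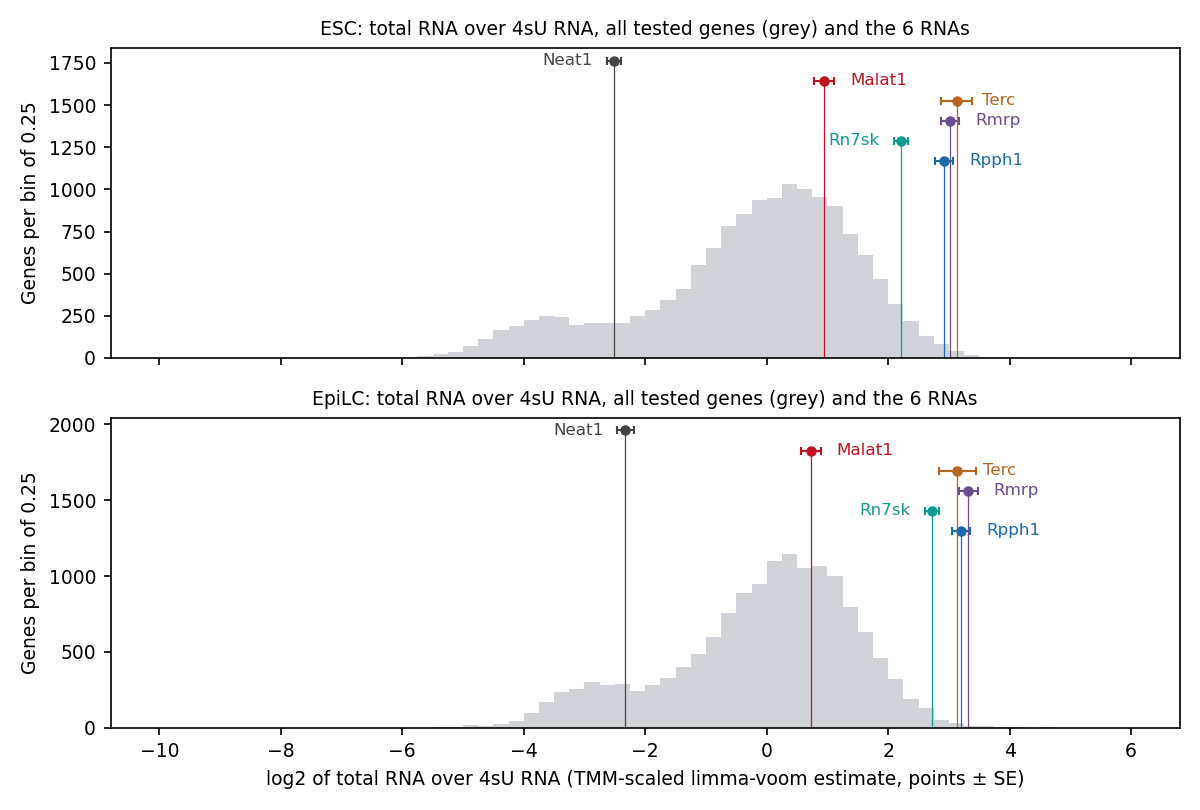
Distribution of the log2 ratio of total over 4sU RNA for all tested genes with a transcript in the annotation (grey, genes per bin of 0.25) in ESCs (top) and EpiLCs (bottom), with the 6 RNAs as points ± SE at their own ratio (height has no meaning for the points). Terc, Rmrp, Rpph1 and Rn7sk lie in the right tail, Malat1 right of the centre and Neat1 in the left shoulder.

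Genes with few uridines had mostly low ratios of total over 4sU, unlike the 4 short RNAs. Among the other tested genes, the 346 with under 50 uridines had a median log2 ratio of -2.38 in ESCs, with 33 called higher and 239 lower, and the 163 with 50 to under 100 a median of -1.30, with 36 called higher and 87 lower. Rmrp belongs to the first class and Rpph1, Rn7sk and Terc to the second, and all 4 were among the genes called higher. In EpiLCs the class medians were -2.03 and -0.96. Few uridines went with short length. The 353 other tested genes with under 200 bases of exon had a median of 28 uridines. Their median log2 ratios were -2.38 in ESCs and -2.03 in EpiLCs, the same as those of the class with under 50 uridines. The parts of length and uridine number were not tested. Over all 14710 tested genes with a transcript, the Spearman correlation of the ESC ratio was -0.0432 with the number of uridines and -0.249 with the percentage of uridine (-0.0457 and -0.268 in EpiLCs). The ratio did not move in 1 direction with uridine number. In ESCs the class median was 0.40 at 200 to under 500 uridines and -0.25 at 2000 or more. These are descriptions across genes, which share libraries and are not independent.

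At the other end of uridine number, the 943 genes with at least 2000 uridines had a median log2 ratio of -0.25 in ESCs, and 82 were called higher and 226 lower. Malat1 and Neat1 are both of this size and lay on opposite sides of that median. By annotation class, the 309 other tested lincRNAs had a median of -2.48 in ESCs with 243 called lower and 9 higher, so Neat1 was near the middle of its class and Malat1 above the upper quartile of -1.23. Small nucleolar RNAs (216 genes) had a median of -1.82 in ESCs and small nuclear RNAs (41 genes) a median of -2.74. Both medians were far from the positive ratios of Rpph1, Rmrp, Rn7sk and Terc. Both classes were split, with 29 called higher and 130 lower of the former and 3 and 27 of the latter. Their highest values, 4.63 and 3.37, lay above the ratios of these RNAs. In EpiLCs 37 were called higher and 115 lower of the former, and 9 and 26 of the latter. The 10 small Cajal body RNAs, in contrast, had a median of 2.27 in ESCs. Rpph1 and Rmrp are annotated as ribozymes, and the 1 other tested gene of that class, Rprl3, named here after its value was seen, was higher still with a wide error (3.80 ± 0.980 in ESCs and 4.32 in EpiLCs). Rn7sk and Terc are annotated as miscellaneous RNAs, of which 16 others were tested. Their median was -2.96 in ESCs with an upper quartile of 2.17, and 5 were called higher and 10 lower. The 5, chosen in the same way, were Rny1, Rny3, Gm24146, Gm26035 and Gm26461, and Gm24146 and Gm26035 are among the copies that share windows with Rn7sk.

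**Figure D3:**
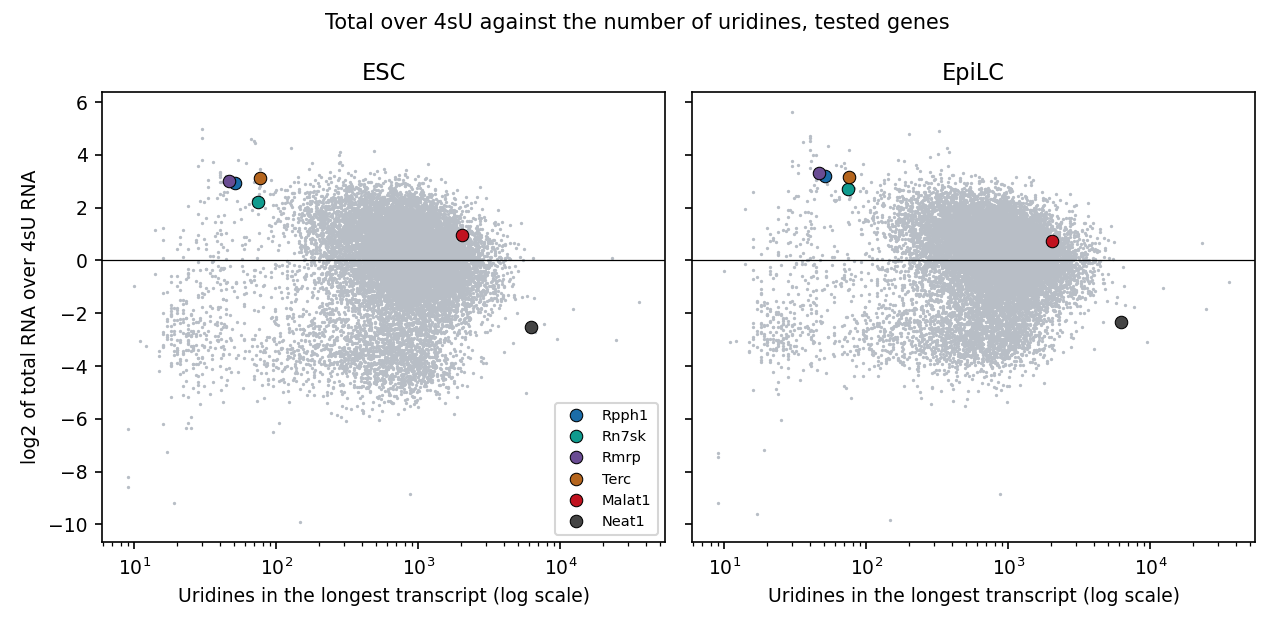
Log2 ratio of total over 4sU RNA against the number of uridines in the longest annotated transcript (log scale) for tested genes (grey) in ESCs and EpiLCs, with the 6 RNAs in colour. Rmrp, Rpph1, Rn7sk and Terc, with 46 to 76 uridines, lie high among genes of like uridine number, while Neat1, with 6240, lies below 0.

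The second comparison was EpiLC against ESC in each fraction, to ask whether these RNAs changed as cells left the naive state. The total, 4sU and ratio comparisons share libraries, so their values are given side by side only. In total RNA 1 of the 6 was called, Neat1, which fell by 1.65 ± 0.140 (SE) on the log2 scale (3.13-fold lower, adjusted p = 1.19e-07). Of all genes 16.3% were called higher and 11.2% lower. In 4sU RNA 2 were called, Neat1, which fell by 1.83 ± 0.127 (3.56-fold lower, 5.23e-08), and Rpph1, which fell by 1.09 ± 0.161 (2.13-fold lower, 5.78e-05), against 11.9% of all genes called higher and 13.5% lower. The median change of all genes was 0.02 in total and -0.09 in 4sU RNA.

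Rpph1 sat close to the fold limit and its calls turned on single libraries. In 4sU RNA its log2 change was -0.90 without ESC 4sU replicate 3 and -0.92 without EpiLC 4sU replicate 3, neither called. In total RNA it was -0.82 ± 0.145 (adjusted p = 0.000178), not called, and -1.02 without ESC total replicate 3, called. With both ESC replicate 3 libraries left out it was -1.03 in total and -0.99 in 4sU RNA. The direction was the same in each of these fits and the adjusted p stayed under 0.05.

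Rmrp followed Rpph1, at -0.67 ± 0.145 in total RNA (adjusted p = 0.000963) and -0.96 ± 0.161 in 4sU RNA (0.000181), and was called in 4sU RNA only without EpiLC 4sU replicate 2, at -1.01. Rn7sk was at -0.31 ± 0.114 in total (0.0266) and -0.82 ± 0.123 in 4sU RNA (6.93e-05). Both were under the fold limit in both fractions. Terc was at -0.45 ± 0.145 in total (0.0137) and -0.47 ± 0.377 in 4sU RNA (0.314), where the 2 groups overlapped. In total RNA the adjusted p of Rn7sk was 0.0731 with library totals alone and up to 0.107 with a library left out, and that of Terc up to 0.07. Without the ESC replicate 3 libraries the total RNA changes of Rmrp, Rn7sk and Terc were -0.92, -0.44 and -0.62. Without EpiLC 4sU replicate 1, the library with 20 reads, its 4sU value was -0.02. Malat1 alone had positive values, 0.38 ± 0.159 in total (0.0469) and 0.60 ± 0.168 in 4sU RNA (0.00805), the latter 0.38 without ESC 4sU replicate 3 and 0.29 without both ESC replicate 3 libraries. Its total RNA value passed an adjusted p of 0.05 narrowly, and the adjusted p was 0.0602 with median-of-ratios scaling, 0.0603 in edgeR, 0.0655 in DESeq2 and up to 0.129 with a library left out.

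**Figure D4:**
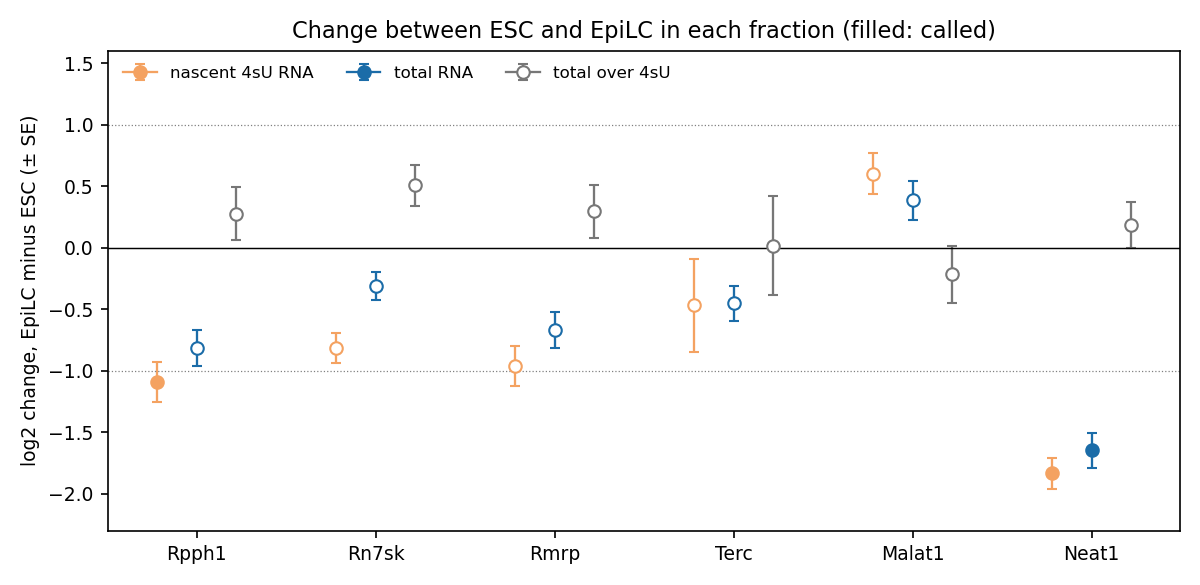
Log2 change from ESC to EpiLC (± SE, limma-voom on 12 libraries) of each RNA in nascent 4sU RNA, in total RNA and in the ratio of total over 4sU, with filled points for called changes and dotted lines at the fold limit of 1. Neat1 is lowest in both fractions, Malat1 is the only RNA above 0 in both, and no ratio change is called.

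The ratio of total over 4sU was then compared between the cell types as an interaction. None of the 6 was called by limma-voom, edgeR or DESeq2, while 1.24% of all genes were called higher in EpiLCs and 0.305% lower, that is 182 and 45 genes. With a replicate block that pairs libraries of like number across fractions, 405 and 80 genes were called and again none of the 6, and the adjusted p of Rn7sk was 0.0545. The log2 changes were 0.51 ± 0.167 for Rn7sk (adjusted p = 0.0933), 0.30 ± 0.217 for Rmrp (0.45), 0.28 ± 0.216 for Rpph1 (0.484), 0.19 ± 0.189 for Neat1 (0.606), 0.02 ± 0.404 for Terc (0.988) and -0.22 ± 0.232 for Malat1 (0.626). In limma the unadjusted p was 0.00891 for Rn7sk and 0.193 or more for the other RNAs. How many of all genes had an unadjusted p under 0.05 is not given here, so no count is drawn from it. The median over all genes was 0.11. The SE was widest for Terc, and even a change larger than that SE could have been missed at this depth.

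ESC replicate 3 also stood apart in the ratio. Matching libraries by replicate number, Rpph1 was 9.77, 9.28 and 4.77 times higher in total than in 4sU RNA in ESCs 1 to 3 and 8.01, 8.60 and 11.3 times in EpiLCs. Rn7sk was 5.94, 5.08 and 3.30 times higher in ESCs and 6.39, 6.20 and 7.29 times in EpiLCs. Replicate 3 of ESCs gave the lowest ratio for Rpph1, Rn7sk, Rmrp and Terc and the highest for Malat1 (3.07 against 1.61 and 1.49). With both libraries of that replicate left out the change of Rn7sk was 0.28 (adjusted p = 0.0335), that of Neat1 0.28 (0.0426), that of Rmrp 0.05 (0.68), that of Terc -0.25 (0.613), and those of Rpph1 and Malat1 changed sign, at -0.04 and 0.12.

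The proteins that work with these RNAs were followed as lists through their messenger RNAs. Of 11 RNase P and RNase MRP protein genes, 1 was called lower and none higher in EpiLC total RNA, namely Rpp25, which binds both RNAs, at -2.48 ± 0.13, and the list median was -0.29 against 0.02 for all genes. In 4sU RNA Rpp25 (-3.01 ± 0.16) and Rpp40 (-1.12 ± 0.17) were called lower. Total over 4sU was called higher for 2 (Pop5 at 1.81 and Pop1 at 1.41) and lower for 1 (Rpp38 at -1.60) in ESCs, all below the ratios of Rpph1 and Rmrp.

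Of 7 genes of the 7SK particle and P-TEFb, Hexim2, an inhibitor of the kinase, was the only one called between cell types. It was at -1.15 ± 0.19 in total and -1.50 ± 0.33 in 4sU RNA. These values rest on 41 to 55 reads in each EpiLC total library and 8 to 25 in each EpiLC 4sU library. Hexim1 was at -0.72 ± 0.14 in total and -0.95 ± 0.14 in 4sU RNA (limma adjusted p = 0.000418 and 5.94e-05), under the fold limit. Without the ESC replicate 3 libraries Hexim1 was called lower in 4sU RNA as well (-1.03). Mepce, which caps 7SK RNA, and Hexim1 were called lower in total than in 4sU RNA in ESCs (-1.81 and -1.56) and EpiLCs (-1.69 and -1.32), with Ccnt1 called lower in EpiLCs as well (-1.21), opposite in sign to Rn7sk itself. Of 8 telomerase protein genes, Naf1, an assembly factor, was called higher in EpiLCs at 1.28 ± 0.09 in total and 1.17 ± 0.10 in 4sU RNA. Total over 4sU was called higher for 1 (Nop10 at 1.13) and lower for 2 (Naf1 at -1.24, Gar1 at -1.20) in ESCs, and higher for 3 and lower for 1 in EpiLCs.

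None of 8 paraspeckle protein genes was called between cell types in total RNA, where Neat1 was called lower, and the list median was 0.19. In 4sU RNA Rbm14 was called lower (-1.53 ± 0.10). In ESCs Nono and Dazap1 were called higher in total than in 4sU RNA (1.74 and 1.91) and Rbm14 and Hnrnph3 lower (-1.89 and -1.46), on the side of Neat1. Of 6 nuclear speckle protein genes, Srrm2 was called higher in EpiLC total RNA (1.06 ± 0.16) and none in 4sU RNA, and 4 of 6 were called lower in total than in 4sU RNA in ESCs, led by Srrm1 at -2.26, and 3 without the ESC replicate 3 libraries, where Srsf2 was at -0.89. All values of these lists are of messengers and not of proteins.

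Among 8 other structural RNAs, 6 passed the filter, and the others had at most 16 reads in any library. The U11 and U12 RNAs of the minor spliceosome, Rnu11 and Rnu12, were called lower in total than in 4sU RNA (-3.59 and -2.45 in ESCs), whereas Rny3 and Rny1 were called higher (3.74 ± 0.98 and 2.96 ± 0.75) with wide errors. Without the ESC replicate 3 libraries Rny1 and Rny3 were called higher in EpiLC total RNA (1.42 and 1.77 against 0.75 and 0.93 with them), as was Rnu73b (1.36 against 0.85), which was then also called for its ratio change (1.17). Of 10 other nuclear long non-coding RNAs that passed, 7 were called lower in total than in 4sU RNA in ESCs and none higher, namely Tsix (-4.25), Kcnq1ot1 (-3.02) and 5 others, on the side of Neat1. The value of Xist among them (-5.03) rested on 3 to 5 reads in each ESC total library. In EpiLCs 6 were called lower and none higher. Between cell types 6 of the 10 were called higher in total RNA, among them Miat (4.03), Meg3 (1.82) and, from 7 to 19 reads in each EpiLC total library, Xist (2.15), and none lower, in contrast to Neat1. In 4sU RNA 4 were called higher and 3 lower, the latter Pvt1 (-1.51), Tsix (-1.45) and Xist (-1.29), on the side of Neat1. In total RNA Pvt1 was at -0.93 ± 0.16 and Tsix at -0.61 ± 0.13, under the fold limit with limma adjusted p of 0.000174 and 0.000838. Without the ESC replicate 3 libraries Xist was not called in 4sU RNA (-0.88).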

How the data were processed

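The authors trimmed 50-base reads with cutadapt 1.14, aligned them to mm10 with STAR 2.5.3a keeping unique alignments, and counted reverse-stranded reads per gene with featureCounts 1.5.3 on a GENCODE M14 basic annotation without ribosomal RNA. The deposited values are raw counts per gene for 12 libraries, with gene lengths. The 4 groups of 3 were taken from the labels. All 12 libraries entered a group-means model in limma 3.58.1 (voom) with TMM factors from edgeR 4.0.16, on the 14731 genes that reached 3 CPM in 3 or more libraries. Contrasts were EpiLC against ESC in each fraction, total against 4sU in each cell type, and their interaction, with Benjamini-Hochberg adjusted p over all tested genes. The code was tested on simulated data. Alternatives were other scalings, no filter, edgeR quasi-likelihood, DESeq2 1.42.0, replicate blocks, and libraries left out. Symbols, transcripts and uridines came from GENCODE M21, which named 99.6% of genes. All 6 RNAs are named here, list genes only where called, at most 3 per list and comparison (5 flagged by the interaction besides), and the 3 genes of highest Pearson r with each RNA. Some items that this rule names, and 1 stretch of sequence, are not reported here. The RNAs and lists were chosen with earlier results of these data known.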

Additional observations from a re-analysis of the deposited data

Results flagged for a closer look

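No value of the 6 RNAs met a rule for a closer look. In the lists set beside them, 5 genes were picked out because their ratio of total over 4sU differed between EpiLCs and ESCs by the interaction test in limma (3 libraries a group). The log2 change, EpiLC minus ESC, was 3.44 ± 0.86 for Xist (adjusted p = 0.038), 1.75 ± 0.32 for Rnu11 (0.012), 1.37 ± 0.36 for Rnu12 (0.046), 1.16 ± 0.14 for Rbm14 (0.0013) and 1.16 ± 0.25 for Kcnq1ot1 (0.019). Xist had 3 to 5 reads in each ESC total library and 7 to 19 in each EpiLC total library, so its value rests on few reads. All 5 had a higher ratio in EpiLCs, a direction in which 1.24% of all tested genes were called.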

How the results depend on the processing

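Of the counts of called RNAs, those for total over 4sU in EpiLCs (5) and for the ratio change between cell types (0) were the same in every alternative fitted, with no sign reversed in either total over 4sU comparison. In ESCs total over 4sU gave 5 or 6, the sixth being Malat1 (1.141 without the filter on low counts). In total RNA the count was 1 in the main fit, 1 to 2 with a library left out and 2 with both ESC replicate 3 libraries left out. In 4sU RNA it was 2 in the main fit, 1 to 3 with a library left out and 1 with both ESC replicate 3 libraries left out. The cause was not tested.

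The sign of the ratio change between cell types turned for 3 RNAs, none near the threshold. For Terc it was -0.066 with median-of-ratios scaling, -0.067 with scaling factors computed without the 6 RNAs, -0.10 without the filter, -0.042 in edgeR, -0.12 in DESeq2 and -0.0041 with the replicate block by number. With 1 library left out it ran from -0.44 to 0.26. The negative values were -0.10 without ESC 4sU replicate 2, -0.19 without ESC 4sU replicate 3, -0.15 without ESC total replicate 3, -0.44 without EpiLC 4sU replicate 1 and -0.05 without EpiLC total replicate 1. With both ESC replicate 3 libraries left out it was -0.25 for Terc, -0.041 for Rpph1 and 0.12 for Malat1. Leaving mitochondrial reads out of the denominator moved the summed 4sU share from 1.16 to 1.26% in ESCs and from 0.882 to 0.934% in EpiLCs.

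Scaling by library totals alone moved the median ratio of total over 4sU of all genes in ESCs from 0.03 to -0.20, and the ESC calls from 3490 higher and 3953 lower to 2660 and 4555. The ratio changes called between cell types went from 182 higher and 45 lower to 132 and 66 with median-of-ratios scaling, and with 1 library left out they ran from 39 and 30 without EpiLC 4sU replicate 1, and 54 and 49 without ESC total replicate 1, to 572 and 86 without ESC total replicate 3. With both ESC replicate 3 libraries left out they were 680 and 99. The refit of the listed genes without that replicate was chosen after seeing the data. Replicate numbers were checked as pairs. Deviations of 4sU and total libraries of the same number correlated at 0.194, 0.335 and 0.437 in ESCs and 0.0817, 0.0392 and 0.0212 in EpiLCs. Low values can also arise where replicates differ little, so they do not decide whether the EpiLC libraries were pairs. The study divided each labelled RNA between the fractions, but the sources used here do not tie a shared number to 1 RNA sample, and both fits are given. A replicate block left the counts of called RNAs at 1 in total RNA, 2 in 4sU RNA, 0 for the ratio change, and 5 and 5 for total over 4sU, and over all genes moved the ratio changes called from 182 to 405 higher with the block by culture. In the ESC pairs each 4sU library correlated best with the total library of its own number, and in the EpiLC pairs this did not hold for replicate 3. For ESC 4sU replicate 2 the margin was small, at 0.335 with total replicate 2 and 0.325 with total replicate 1, so it does not single out a pair. ESC 4sU replicate 3 was at -0.383 and -0.316 with total replicates 1 and 2.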

Other observations

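Genes within 5 kb of the short RNAs drew far fewer reads than those RNAs. They include Parp2 (179 bases from Rpph1, opposite strand), C920006O11Rik (281 from Rn7sk, opposite) and Ccdc107 (304 from Rmrp, opposite), with 8892, 263 and 1607 reads over all 12 libraries, against 1177136 for Rpph1, 1157291 for Rn7sk and 1147639 for Rmrp. Beside Neat1, which had 17674 reads, this was not so, since Frmd8 (4224 bases away, same strand) had 6544. Strand was used in counting, so reads of opposite genes were kept apart. Inside Neat1 and Malat1 the annotation places 3 and 1 short genes on the same strand, over 384 and 86 bases, and all 4 of these held 0 reads.

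Across the 12 libraries, as a description of TMM-scaled log2 CPM whose groups set most of the spread, the tested genes with the profile most like each RNA were Ap3d1, L3mbtl2 and Fscn1 for Rpph1 (Pearson r 0.996, 0.995 and 0.995), Mrpl28, Snrpd2 and Pgap2 for Rn7sk (0.998, 0.996 and 0.996), and Tmem258 and Eef1g for Rmrp (0.997 and 0.996). For Terc they were Rps10-ps1, Fh1 and Cyba (0.996, 0.994 and 0.993), for Malat1 Gm11837, Ugcg and Pctp (0.987, 0.982 and 0.976), and for Neat1 Mynn, Zfp846 and Ptch1 (0.996, 0.996 and 0.992). Among the 6 themselves, Rpph1, Rn7sk, Rmrp and Terc had r of 0.966 to 0.994 with each other, and Malat1 and Neat1 -0.874.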
